A study of Mus musculus with 8 samples.

Results

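Chemokines are small secreted proteins that direct the migration of leukocytes, and chemokine receptors are the G-protein coupled receptors that read them. The genes described here are the 49 protein-coding genes with reads whose symbols begin with Ccl, Cxcl, Ccr or Cxcr followed by a number, out of 17331 protein-coding genes with reads in a table of 46983 genes. They comprised 33 ligands and 16 receptors. Among genes matching by name, Ccr4, Cxcl15 and Cxcl17 were listed at 0 in every library, and Cxcl11 is annotated as a polymorphic pseudogene, so these 4 were not members.

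CC and CXC ligands are named for the spacing of their conserved cysteines. Inflammatory ligands are switched on by signals such as NF-kB and interferon, and homeostatic ligands are made steadily to position cells in tissue. Microglia, the resident macrophages of the brain, make several CC chemokines when activated and in demyelinated white matter, where ligands such as Ccl2 and Cxcl10 are known to draw in other cells.

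Microglia were isolated from the corpus callosum of FvB/C57BL6 hybrid mice and profiled by RNA sequencing in 8 libraries. Every mouse carried Cx3cr1-CreER, a tamoxifen-inducible Cre recombinase under the fractalkine receptor gene. The labels define Qk-KO mice as QKLoxP/LoxP and WT mice as QKLoxP/+, so WT mice also carried 1 flanked Qk allele and the Cre. All mice received tamoxifen at 8 weeks of age and then a diet with 0.2% cuprizone, a copper chelator that kills oligodendrocytes, for 6 weeks. The study asked what loss of Qk, which encodes the RNA-binding protein quaking, does in microglia during demyelination. By sample name 4 libraries were WT and 4 were Qk-KO, and the source name states the same as the sample name. The genotype field states the opposite for 4 of the libraries, WT 2 and 3 and Qk-KO 1 and 3. In libraries 1 to 4, Qk itself, over the whole gene, was 15.50, 15.38, 15.41 and 15.37 in named WT and 15.59, 15.40, 15.69 and 15.29 in named Qk-KO on the log2 scale, so it did not follow the names. A value over the whole gene does not show whether the flanked part was deleted. Libraries are therefore called by their names, no difference is assigned to a genotype, and the grouping by genotype field is given at the end. The labels do not say whether libraries came from separate animals, and the p-values speak only of the variation among these 8 libraries, part of which may be technical.

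Rough totals, in units of 1000000 reads assigned to genes, ran from 59.7 to 69.7 where the name was WT and from 43.9 to 58.5 where it was Qk-KO, so that depth and name cannot be told apart. All 10 microglial markers had reads, with a summed level of 15274 to 16921 parts per 1000000 of a library's signal (ppm) over the named WT libraries and a lower 12394 to 14839, without overlap, over the named Qk-KO ones. Libraries numbered 4 stood apart in both named groups: oligodendrocyte markers averaged 9.43 and 9.44 on the log2 scale there and 7.16 to 7.86 in the other 6. Named WT 2 held the most neutrophil marker signal, 358.6 ppm against 11.8 to 71.8 in the other 7.

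Values per library are regularized log2 values, shrunken towards the gene's mean where reads are few, and a difference of 1 is a doubling. Each list of 4 values follows the library numbers 1 to 4. To compare levels between genes, the mean signal over the 8 libraries was divided by exon length and scaled to a total of 1000000 over all genes, a level per length in ppm. Named groups were compared with limma over 22546 genes, of which 41 members passed the filter on low values, beside the authors' deposited table, which gives an adjusted p for 27 members. Calls are at a Benjamini-Hochberg adjusted p under 0.05.

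Cxcl9, a ligand that interferon-gamma induces and that attracts T cells through Cxcr3, was the member called in the authors' deposited table, and it was lower in named Qk-KO. That is 1 of 27 members, where 1.22% of all genes with an adjusted p were called. By limma 0 of the 41 tested members were called, where 0.00444% of all genes were. At an unadjusted p under 0.05 limma had 4 members of 41, where all genes gave 8.26%, and the authors' deposited table had 4 of 27, where all genes gave 10.7%. Cxcl9, Ccl9 and Ccl6 were among them in both, each lower in named Qk-KO. The named groups did not overlap for 3 of the 41, Cxcl9 and Ccl9 among them, where 5.73% of all genes did not. All 3 were lower, where 2.7% of all genes were lower and 3.04% higher without overlap. Without named Qk-KO 4 the count was 7 of 41 against 15.7% of all genes: Ccl7 and Cxcl12 joined the lower members, and Cxcr4 and Cxcl16 were higher. The same 7 did not overlap without both libraries numbered 4, against 19.6% of all genes. Without named WT 2 it was 5 of 41, with Ccl27b lower and Ccr3 higher, against 8.83%. With libraries centred on their medians it was 1 of 41, Cxcl9, against 4.51% of all genes, of which 0.683% were lower. As a set the members lay near the background: their median difference was -0.06, with 18 positive and 23 negative, against -0.0044 over all genes, with 10997 positive and 11549 negative.

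**Figure D1:**
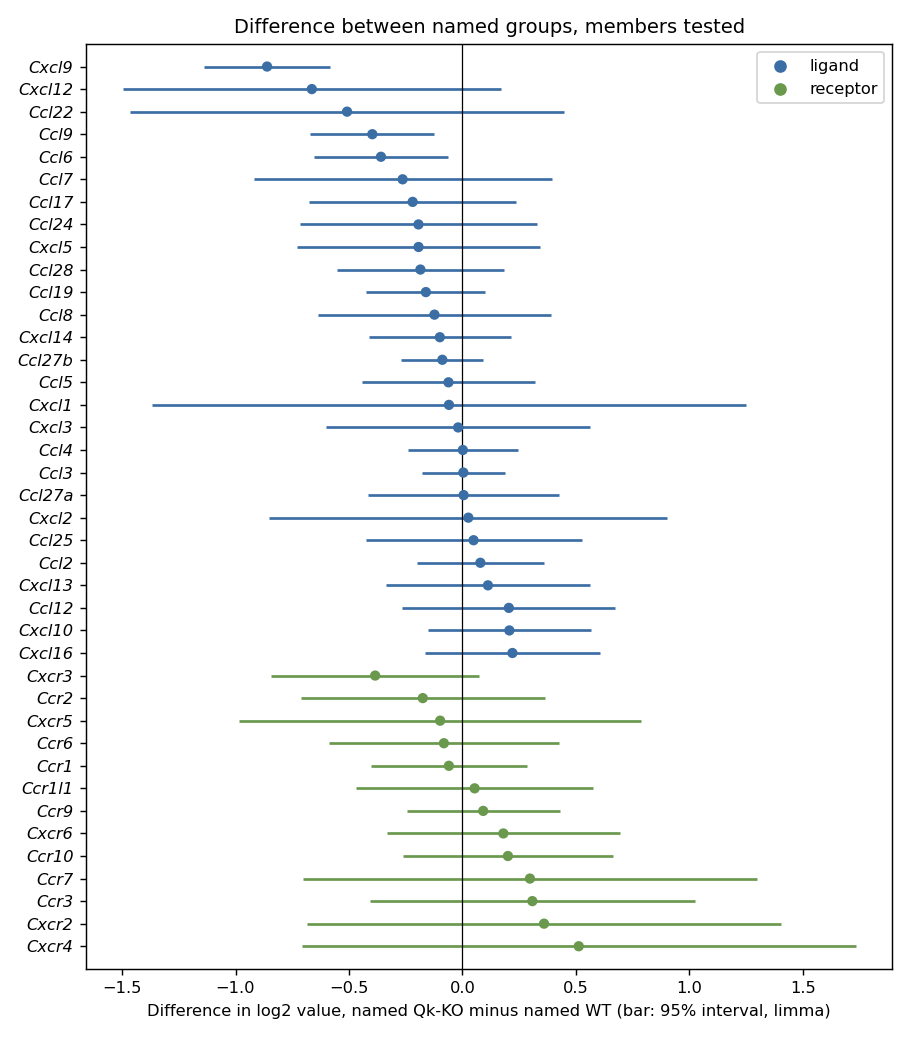
Difference in regularized log2 value, named Qk-KO minus named WT, for the members tested and reported (points) with the 95% interval from limma (bars); ligands are blue and receptors green. The intervals of Cxcl9, Ccl9 and Ccl6 lie below 0, and those of Cxcl1, Cxcl2 and Cxcr4 are wide.

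Ccl3 and Ccl4, macrophage inflammatory proteins, were the most abundant ligands at 1779 and 1380 ppm per length. Together they made up 49.6% to 58.0% of the summed signal of all 49 members in each library. Ccl6 followed at 239 ppm per length, then Cxcl16 at 152, Ccl12 at 79.7 and Cxcl2 at 42.1. Cxcl9 stood at 3.16, thirteenth among the 33 ligands and below Cxcl10 at 30.5. Among receptors, Cxcr4 led at 231 ppm per length, with Ccr1 at 3.70 and Ccr2 at 1.96. A further 12 receptors were at 1.27 or less. Exon lengths were taken from GENCODE M21, which need not be the annotation the authors used.

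**Figure D2:**
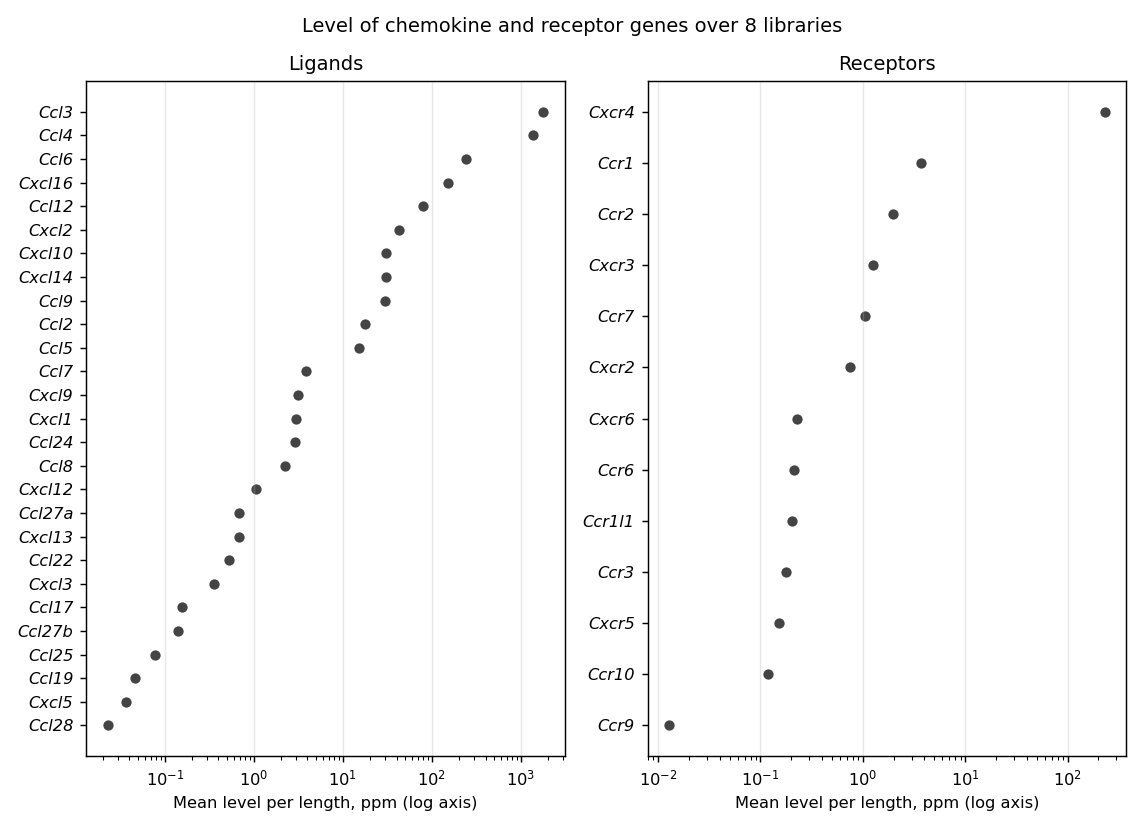
Mean level over the 8 libraries of the ligands and receptors tested and reported, as a level per length in ppm (log axes), 1 point per gene. Ccl3 and Ccl4 lead the ligands at 1779 and 1380, and Cxcr4 leads the receptors at 231.

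The interferon-inducible ligands Cxcl9 and Cxcl10 share the receptor Cxcr3 and lie close together on chromosome 5, yet of the pair only Cxcl9 was called, and that in the authors' deposited table. Cxcl9 (ENSMUSG00000029417.9, GRCm38 chromosome 5, 92321347 to 92328079, minus strand) had values of 8.854, 8.998, 9.003 and 8.960 in the named WT libraries and 8.121, 8.243, 7.753 and 8.253 in the named Qk-KO ones. Every named Qk-KO library lay below every named WT library, and named Qk-KO 3 was the lowest. The means were 8.95 ± 0.07 and 8.09 ± 0.23 (SD, n = 4 each). In the authors' deposited table its fold change on the log2 scale was -0.89 with an SE of 0.14, that is 1.85-fold lower. The adjusted p there was 3.36e-07, the third smallest of all genes. By limma it differed by -0.86 (SE 0.12; 95% interval -1.14 to -0.58) with an unadjusted p of 5.22e-05 and an adjusted p of 0.255. Leaving out any 1 library kept the limma difference between -0.91 and -0.75, with an adjusted p from 0.061 without named Qk-KO 4 to 0.769 without named WT 1. Depth and microglial marker signal were also lower in named Qk-KO without overlap, and their part in Cxcl9 was not tested.

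Cxcl10 (ENSMUSG00000034855.13, chromosome 5, 92346638 to 92348889, minus strand), which also responds to type I interferon and NF-kB, did not follow Cxcl9. It had values of 11.33, 11.43, 11.46 and 11.06 in named WT and 11.94, 11.19, 11.62 and 11.36 in named Qk-KO. Named Qk-KO 1 was the highest and named WT 4 the lowest, and the groups overlapped. By limma Cxcl10 differed by 0.21 with a 95% interval of -0.15 to 0.57 (adjusted p = 0.735). Within a library, Cxcl9 lay below Cxcl10 by a log2 difference of -2.47, -2.43, -2.46 and -2.10 in named WT and -3.82, -2.95, -3.87 and -3.11 in named Qk-KO. These differences did not overlap between named groups. They were computed after both genes had been seen and are given without a test. A 133-base exon stretch of Cxcl10 is shared with Art3 on the opposite strand, whose mean signal of 20.01 was far below the 2792 of Cxcl10.

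Cxcr3, the receptor of both, was detected at 1.27 ppm per length. Its values were 6.667, 6.871, 6.376 and 6.601 in named WT and 5.830, 6.122, 6.376 and 6.649 in named Qk-KO. Named Qk-KO 1 and 2 were the lowest, and named Qk-KO 3 and 4 lay within the named WT range. By limma Cxcr3 differed by -0.38 with a 95% interval of -0.84 to 0.07 (adjusted p = 0.662). T and NK cell markers, which include cells that carry Cxcr3, averaged 4.35 to 5.15 over the named WT libraries and 4.40 to 5.02 over the named Qk-KO ones. All 11 had reads, at a summed 7.39 to 12.6 ppm and 6.18 to 11.9 ppm, in the same order of names. Their part in the Cxcr3 values was not tested.

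**Figure D3:**
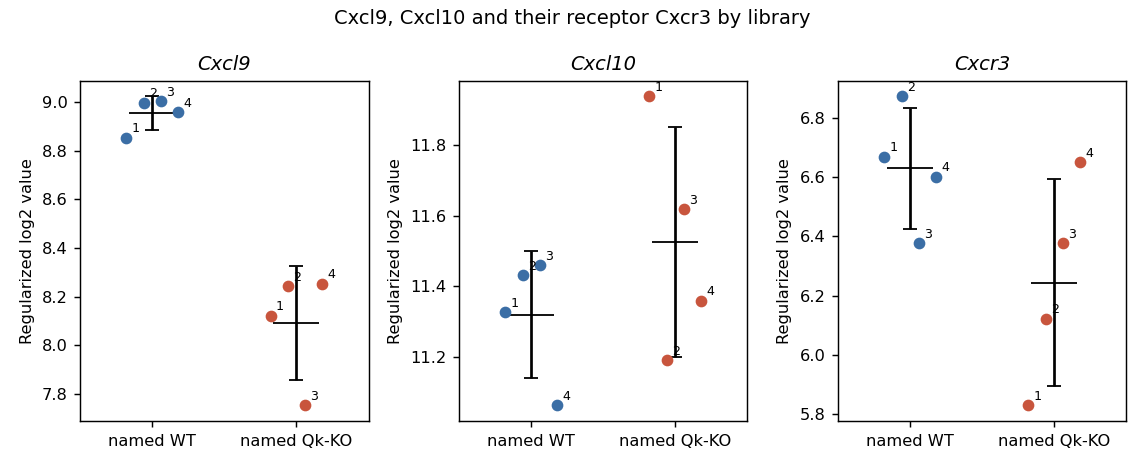
Regularized log2 values of Cxcl9, Cxcl10 and Cxcr3 in the 4 named WT (blue) and 4 named Qk-KO (red) libraries, numbered as in their names, with the mean (horizontal line) and SD (bars). For Cxcl9 the named groups are separate, at 8.854 to 9.003 and 7.753 to 8.253, and for the other genes they overlap.

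Genes around the interferon-gamma receptor were read from a list of 18. The authors' deposited table called 1 of them, Gbp2, an interferon-induced GTPase, and it was lower, where 1.22% of all genes were called and 0.671% called lower. Its values were 10.69, 10.31, 10.58 and 10.43 in named WT and 10.08, 9.88, 9.85 and 10.11 in named Qk-KO, without overlap, and the authors' deposited table gave a fold change of -0.54 on the log2 scale (SE 0.12) at an adjusted p of 0.00123. The other 17 were not called, and 15 of the 18 differences were negative with a median of -0.10, where 11549 of all 22546 genes tested were negative. Named after their values were seen, Irf1 differed by -0.08 and the receptor chains Ifngr1 and Ifngr2 by -0.06 and -0.09 in limma.

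The windows directly upstream of these genes are shown because Cxcl9 and Cxcl10 differed in their values, and those of Cxcl1 and Cxcl2 because these varied together between libraries. Each is the 250 bases before the RefSeq gene start in GRCm38.p6, 5′ to 3′ along the gene, at chr5:92328080-92328329 (minus strand) for Cxcl9, chr5:92348890-92349139 (minus) for Cxcl10, chr5:90890995-90891244 (plus) for Cxcl1 and chr5:90903649-90903898 (plus) for Cxcl2. Capitals mark matches on either strand to the interferon-response pattern (GAAA, NN, GAAA), the kappaB pattern (GGGA, N, TT, N, CC) or the interferon-gamma-activated pattern TTCNNNGAA, where N is any base.
Cxcl9: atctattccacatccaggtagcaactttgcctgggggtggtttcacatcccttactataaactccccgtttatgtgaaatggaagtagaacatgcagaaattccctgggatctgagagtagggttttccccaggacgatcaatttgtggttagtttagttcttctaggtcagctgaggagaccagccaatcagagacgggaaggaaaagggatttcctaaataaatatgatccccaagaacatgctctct
Cxcl10: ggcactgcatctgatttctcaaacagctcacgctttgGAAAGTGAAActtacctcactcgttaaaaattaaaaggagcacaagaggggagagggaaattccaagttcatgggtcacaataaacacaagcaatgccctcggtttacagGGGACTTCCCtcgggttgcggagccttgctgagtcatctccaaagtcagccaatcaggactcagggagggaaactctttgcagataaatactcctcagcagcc
Cxcl1: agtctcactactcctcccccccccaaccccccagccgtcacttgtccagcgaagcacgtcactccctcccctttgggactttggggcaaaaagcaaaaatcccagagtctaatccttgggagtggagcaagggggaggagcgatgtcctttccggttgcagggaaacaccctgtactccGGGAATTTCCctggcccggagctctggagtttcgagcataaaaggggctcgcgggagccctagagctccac
Cxcl2: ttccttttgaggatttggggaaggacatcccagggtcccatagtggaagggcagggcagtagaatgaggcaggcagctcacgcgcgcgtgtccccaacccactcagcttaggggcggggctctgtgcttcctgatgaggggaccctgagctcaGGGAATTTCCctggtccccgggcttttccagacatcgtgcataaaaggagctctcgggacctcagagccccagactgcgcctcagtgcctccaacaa
The Cxcl10 window held GAAAGTGAAA at 213 to 204 bases and GGGACTTCCC at 103 to 94 bases before the start. The Cxcl1 and Cxcl2 windows each held GGGAATTTCC, at 71 to 62 and 97 to 88 bases before the start. None of the 3 letter patterns matched in the Cxcl9 window, which says only that these letters are not in these 250 bases. Across 39 windows of the 35 members found in the RefSeq table, kappaB letters matched in 6, those of Cxcl1, Cxcl2, Cxcl3, Cxcl10, Ccr3 and Ccr6, where 0.983% of all 32544 distinct windows held them. The interferon-response letters matched in 3 of 39, in Cxcl10, Cxcl14 and Ccl19, where 2.98% of all windows held them. The interferon-gamma-activated letters matched in 4, in Cxcl14, Ccl17, Ccr6 and Ccr1l1, where 7.04% held them. The patterns do not share letters where both were found in Cxcl10, and a match is not a bound site.

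The ligands with 3 amino acids, glutamate, leucine and arginine, before their CXC motif attract neutrophils through Cxcr2, and among them Cxcl1, Cxcl2 and Cxcl3 varied mainly between libraries. Cxcl2 had values of 11.90, 12.10, 11.69 and 11.07 in named WT and 12.46, 11.48, 12.08 and 10.84 in named Qk-KO. Both libraries numbered 4 were the lowest and named Qk-KO 1 was the highest. Its limma difference was 0.026 with a 95% interval of -0.85 to 0.90 (adjusted p = 0.990). Cxcl1, named after its values were seen, shared its highest library and its lowest pair, with 8.14, 8.04, 8.06 and 6.35 in named WT and 8.60, 7.45, 8.01 and 6.30 in named Qk-KO. Its range over the 8 libraries was 2.31 on the log2 scale. Cxcl3 spanned 5.08 to 6.10, also lowest in named Qk-KO 4 and highest in named Qk-KO 1, and Cxcl5 had a mean signal of 2.80 and did not enter the deposited adjustment. None of these 4 was called.

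The libraries numbered 4 were also lowest for Cxcr4, the receptor of Cxcl12 that holds leukocytes in place, and for Cxcl16, a membrane-anchored ligand of Cxcr6. Cxcr4 had values of 13.90, 14.07, 14.19 and 12.36 in named WT and 14.51, 14.25, 14.73 and 13.07 in named Qk-KO, a 5.19-fold range. Apart from the libraries numbered 4, every named Qk-KO library was above every named WT library. The limma difference was 0.51 with a 95% interval of -0.71 to 1.73 (adjusted p = 0.807). Cxcl16 had 14.11, 14.18, 14.13 and 13.77 in named WT and 14.66, 14.20, 14.39 and 13.83 in named Qk-KO, with the same order outside the libraries numbered 4. Its limma difference was 0.22 with a 95% interval of -0.16 to 0.60 (adjusted p = 0.735). Part of its exons, up to 552 bases, overlaps Zmynd15 on the opposite strand, whose mean signal was 471 against 18642 for Cxcl16. Ccr7, the receptor that guides dendritic cells to lymph nodes, had 5.92, 6.62, 6.56 and 5.05 in named WT and 7.40, 6.14, 6.17 and 5.63 in named Qk-KO. Named Qk-KO 1 was again the highest and the libraries numbered 4 the lowest, and the limma difference was 0.30 with a 95% interval of -0.70 to 1.30 (adjusted p = 0.874).

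Gene lists moved with the same libraries. A list of 16 NF-kB pathway genes averaged 12.88 and 12.85 in the libraries numbered 4 and 13.19 to 13.85 in the other 6, with named Qk-KO 1 the highest at 13.85. A list of 15 immediate early and dissociation response genes averaged 15.00 and 15.08 there and 15.39 to 15.71 elsewhere. By summed level, though, named Qk-KO 1, at 15471 ppm, lay below named Qk-KO 4, at 16207 ppm. The list was not uniform. Hspa1a and Hspa1b were at 12.75 and 12.71 in named WT 4 and 13.10 and 13.09 in named Qk-KO 4, against 14.08 to 16.10 elsewhere. Ier2 was instead highest in the libraries numbered 4, at 14.54 in each, and Btg2 was there the highest of each named group. Oligodendrocyte markers moved opposite to the NF-kB list, as given above. Astrocyte markers averaged 10.85 and 10.70 in the libraries numbered 4 and 7.94 to 10.22 elsewhere. All 8 markers of each list had reads. The oligodendrocyte sums ran from 133 to 333 ppm by the name WT and from 123 to 285 ppm by the name Qk-KO, and the astrocyte sums from 209 to 573 and from 83.2 to 528. The part of these lists in the chemokine values was not tested. Of the 16 NF-kB genes, the authors' deposited table called none, where it called 1.22% of all genes. Of their differences between named groups, 14 were positive and 2 negative, with a median of 0.11, against 10997 positive and 11549 negative over all genes.

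**Figure D4:**
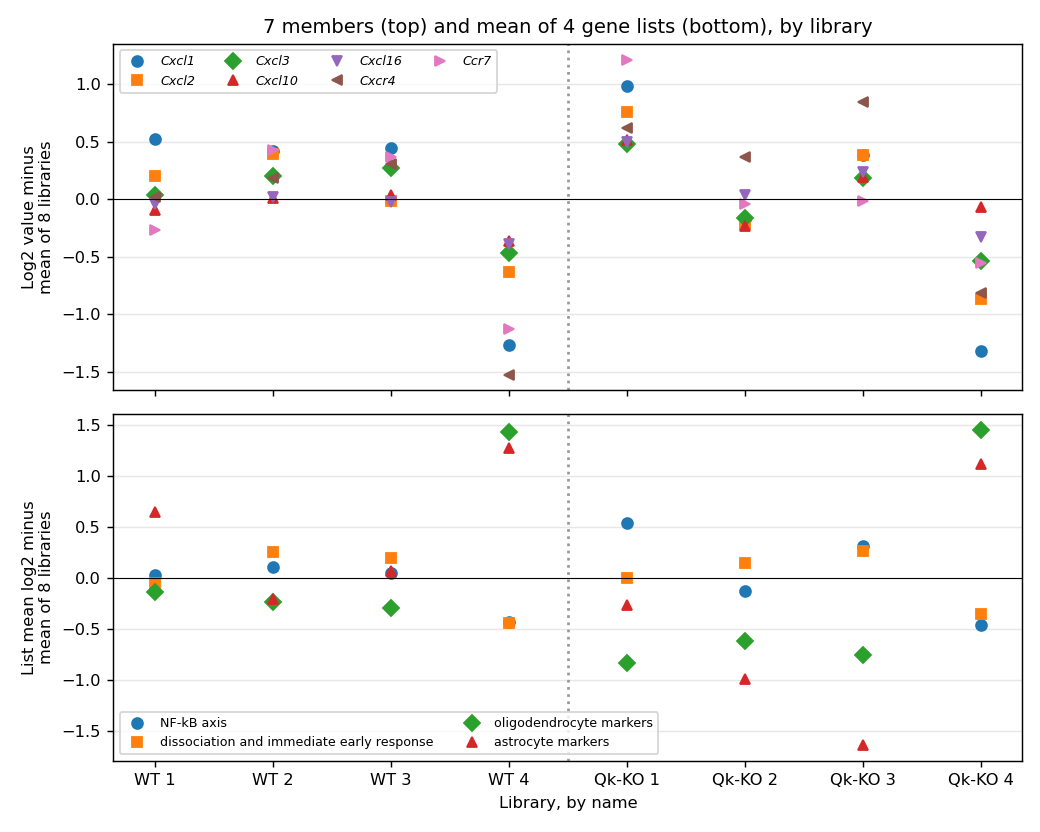
Top, regularized log2 values of 7 members minus each gene's mean over the 8 libraries; bottom, the same for the mean of 4 gene lists; the dotted line separates named WT from named Qk-KO libraries. Cxcl1, Cxcl2, Cxcr4 and Ccr7 are low in both libraries numbered 4, where the NF-kB list is low and the oligodendrocyte markers are high.

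Ccl9 and Ccl6, neighbouring CC ligands on chromosome 11 that bind Ccr1, had lower means in named Qk-KO but were not called. Ccl9 (ENSMUSG00000019122.8, 83572919 to 83578636, minus strand) had 12.004, 12.164, 11.896 and 12.014 in named WT and 11.800, 11.704, 11.232 and 11.753 in named Qk-KO. The groups did not overlap, though named WT 3 and named Qk-KO 1 lay close, and named Qk-KO 3 lay far below the others. The limma difference was -0.40 with a 95% interval of -0.67 to -0.12 (adjusted p = 0.451), and the authors' deposited table gave -0.39 (SE 0.13, adjusted p = 0.131). Ccl6 (ENSMUSG00000018927.3, 83587882 to 83593087, minus strand) had 14.31, 14.27, 14.06 and 14.35 in named WT and 14.10, 14.16, 13.63 and 13.66 in named Qk-KO. Named Qk-KO 3 and 4 were the lowest, while named Qk-KO 1 and 2 overlapped named WT 3. The limma difference was -0.36 with a 95% interval of -0.66 to -0.06 (adjusted p = 0.527), and the authors' deposited table gave -0.34 (SE 0.14, adjusted p = 0.269). Microglial markers were also lower in named Qk-KO, as given above, and their part was not tested.

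The most abundant ligands, Ccl3 and Ccl4, were close to equal between named groups. Ccl3 had 15.77, 15.71, 15.76 and 15.78 in named WT and 15.97, 15.57, 15.82 and 15.67 in named Qk-KO. The named WT libraries were nearly identical and the named Qk-KO libraries lay on both sides of them. Its limma difference was 0.0038 with a 95% interval of -0.18 to 0.19 (adjusted p = 0.994). Ccl4 had 15.26, 15.09, 15.20 and 15.12 in named WT and 15.49, 14.97, 15.22 and 15.01 in named Qk-KO, with named Qk-KO 1 the highest and named Qk-KO 2 the lowest for both genes. Its limma difference was 0.0016 with a 95% interval of -0.24 to 0.24 (adjusted p = 0.998). In every library Ccl3 exceeded Ccl4 in log2 signal, not scaled for length, by 0.48 to 0.66.

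The monocyte chemoattractants Ccl2 and Ccl12, ligands of Ccr2, were highest in named Qk-KO 4. Ccl2 had 9.62, 9.67, 9.47 and 9.76 in named WT and 9.78, 9.47, 9.55 and 10.03 in named Qk-KO (limma difference 0.08, 95% interval -0.20 to 0.36, adjusted p = 0.883). Ccl12 had 10.43, 10.35, 10.65 and 11.08 in named WT and 10.62, 10.71, 10.63 and 11.36 in named Qk-KO (limma difference 0.20, 95% interval -0.26 to 0.67, adjusted p = 0.804). For each, the libraries numbered 4 were the highest of their named group, the reverse of Cxcl1 and Cxcl2. Ccl7, another ligand of this group, ranged from 5.93 in named Qk-KO 3 to 7.55 in named Qk-KO 4, a span as wide within named Qk-KO as over all libraries. Cxcl14, a CXC ligand with few known receptors, had 11.15, 11.34, 11.06 and 11.14 in named WT and 11.27, 11.34, 11.02 and 10.66 in named Qk-KO (limma difference -0.10, 95% interval -0.41 to 0.21, adjusted p = 0.864). Its lowest library, named Qk-KO 4, was the only one outside the named WT range by more than 0.1.

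Of the 13 inflammatory CC ligands, 10 were tested and none was called, with 4 positive and 6 negative differences and a median of -0.09. Beside those above, Ccl5, the T cell attractant RANTES, spanned 8.81 to 9.60, the eosinophil attractant Ccl24 6.61 to 7.68 and Ccl8 5.13 to 5.90, with limma differences of -0.06, -0.19 and -0.12. Ccl1, Ccl11 and Ccl26 were not tested: their mean signals were 0.398, 0.207 and 0.354. Ccl1 came from 4 reads in named WT 1 and Ccl11 from 2 reads in named WT 4, with none in the other 7 libraries.

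Cxcl12, which endothelial, stromal and astrocytic cells make and which binds Cxcr4, was named after its values were seen. It had 8.92, 8.64, 8.15 and 8.84 in named WT and 7.81, 7.55, 7.42 and 9.13 in named Qk-KO. Named Qk-KO 1 to 3 lay below every named WT library, and named Qk-KO 4 was the highest of all 8. By limma Cxcl12 differed by -0.66 with a 95% interval of -1.50 to 0.17 (adjusted p = 0.670). Endothelial markers averaged 10.08, 9.90, 9.27 and 9.81 in named WT and 9.06, 9.10, 8.89 and 10.12 in named Qk-KO, so by this average they too were lowest in named Qk-KO 1 to 3 and highest in named Qk-KO 4. All 8 markers of that list had reads, at a summed level of 306, 286, 214 and 273 ppm in named WT and 227, 240, 228 and 278 ppm in named Qk-KO. By the sum, named WT 3 was the lowest and named WT 1 the highest, so that order does not follow Cxcl12. Flt1 makes up most of that sum, with a mean level of 184 ppm against 17.4 ppm for the next marker, Kdr. Flt1 differed by 0.01 in limma, the 1 positive difference of the list, where 7 were negative and the median was -0.57. By their average astrocyte markers, like endothelial ones, were lowest in named Qk-KO 1 to 3, at 9.31, 8.59 and 7.94 against 9.37 to 10.85 in the other 5. Mural and fibroblast markers were too, at 5.58, 5.75 and 5.21 against 6.00 to 7.02. The averages of oligodendrocyte, oligodendrocyte precursor, neuron, and choroid plexus and ependymal markers were also lowest there. This order was therefore not particular to endothelial and astrocyte markers. In bulk libraries fewer cells of a type and less RNA per cell cannot be told apart, and the part of these markers in Cxcl12 was not tested.

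Cxcl13, the B cell attractant, spanned 4.68 to 5.39 with a limma difference of 0.11. Of the homeostatic and dual CC ligands 10 had reads and 7 were tested, 2 with positive and 5 with negative differences, a median of -0.16 and no call. Ccl22, which attracts T cells through Ccr4, spanned 4.57 in named Qk-KO 2 to 6.37 in named Qk-KO 1, and its limma difference was -0.51 with a 95% interval of -1.47 to 0.45 (adjusted p = 0.756). Ccl27a spanned 5.72 to 6.47 and Ccl25 3.99 to 4.79, and both share exon bases with a gene of higher mean signal on the opposite strand, Il11ra1 (8 bases) and Elavl1 (181 bases). Without a stated strand setting, reads of such pairs cannot be told apart. Ccl17, Ccl19, Ccl27b and Ccl28 had mean signals of 1.64 to 4.51. Ccl20, Ccl21a and Ccl21b, at 0.199, 0.361 and 0.688, were not tested, and Ccl20 came from 2 reads in named WT 1. The near-identical copies Ccl21a and Ccl21b, and Ccl27a and Ccl27b, can share reads, so their split is uncertain.

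Ccr1, which binds Ccl3, Ccl5, Ccl6 and Ccl9, had 8.51, 8.95, 8.52 and 9.02 in named WT and 8.64, 8.71, 8.47 and 8.95 in named Qk-KO. The named groups covered the same range, with a limma difference of -0.06 and a 95% interval of -0.40 to 0.28 (adjusted p = 0.930). Ccr2, the Ccl2 receptor that marks inflammatory monocytes, had 9.27, 9.54, 9.10 and 8.55 in named WT and 8.81, 9.28, 9.20 and 8.47 in named Qk-KO. The libraries numbered 4 were the lowest and named WT 2 the highest, and the limma difference was -0.17 with a 95% interval of -0.71 to 0.36 (adjusted p = 0.860). The other 7 monocyte markers of the list, all with reads, averaged 8.08, 9.05, 7.72 and 7.07 in named WT and 7.87, 8.15, 8.16 and 7.15 in named Qk-KO. By this average they too were highest in named WT 2 and lowest in the libraries numbered 4. The averages of neutrophil, T and NK cell, and B cell markers did the same, so this was not particular to monocyte markers. The monocyte marker sums were 600, 669, 526 and 716 ppm in named WT and 634, 510, 661 and 314 ppm in named Qk-KO. By the sum named WT 4 was the highest and named Qk-KO 4 the lowest.

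Cxcr2, the neutrophil receptor for Cxcl1 and Cxcl2, had 6.17, 7.19, 6.60 and 4.78 in named WT and 6.00, 6.77, 6.67 and 6.74 in named Qk-KO. Named WT 2 was the highest and named WT 4 the lowest, with a limma difference of 0.36 and a 95% interval of -0.69 to 1.40 (adjusted p = 0.853). The other 8 neutrophil markers averaged 8.15, 10.79, 7.45 and 5.93 in named WT and 7.82, 8.50, 7.38 and 6.88 in named Qk-KO, with the same highest and lowest library. All 8 had reads, and their sum was 11.8 to 358.6 ppm by the name WT and 25.5 to 71.8 by the name Qk-KO. Named Qk-KO 4 was high for Cxcr2 but second lowest for those markers. Ccr3, the eosinophil receptor, had 4.17, 5.15, 4.05 and 3.59 in named WT and 4.60, 4.18, 4.50 and 4.92 in named Qk-KO, also highest in named WT 2 and lowest in named WT 4 (limma difference 0.31, 95% interval -0.41 to 1.03, adjusted p = 0.809). The part of these cell types in the receptor values was not tested.

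**Figure D5:**
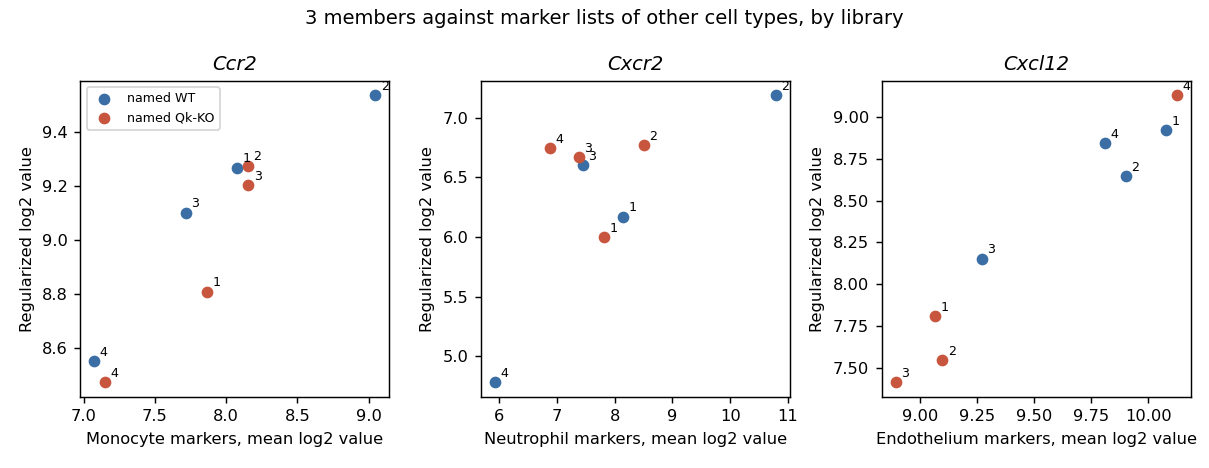
Regularized log2 values of Ccr2, Cxcr2 and Cxcl12 (vertical) against the mean log2 value of monocyte, neutrophil and endothelial markers (horizontal) in the 4 named WT (blue) and 4 named Qk-KO (red) libraries, numbered as in their names and without chemokine genes in the marker lists. Ccr2 and monocyte markers are lowest in both libraries numbered 4, and Cxcl12 and endothelial markers are lowest in named Qk-KO 1 to 3. Marker lists of other cell types, not all shown, were lowest in the same libraries.

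The receptors Cxcr5, Ccr6, Cxcr6, Ccr1l1, Ccr10 and Ccr9, with mean signals of 5.37 to 20.7, were tested and not called, with limma differences from -0.10 to 0.20. Cxcr5 shares up to 110 exon bases with Bcl9l on the opposite strand, whose mean signal of 1184 was far above the 20.7 of Cxcr5. Reads of this pair cannot be told apart either. Ccr8 and Cxcr1, at 1.03 and 0.465, were not tested. Of all 14 receptors tested, 8 had positive and 6 negative differences with a median of 0.07, against 10 positive and 17 negative with a median of -0.09 among the 27 ligands.

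Spread between libraries was wide among the members. The median range from the lowest to the highest of the 8 libraries was 0.91 on the log2 scale for the 41 members and 0.55 for all genes tested, a comparison that does not match the genes on their level. Named Qk-KO 1 was the highest library for 12 of the 41 and named Qk-KO 3 the lowest for 9.

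Chemokine genes outside the naming rule were read from a list of 15. The fractalkine receptor Cx3cr1, under which the Cre of these mice is expressed, was the 1 called of the 7 with an adjusted p in the authors' deposited table, where 1.22% of all genes were called. It was lower, at -0.70 on the log2 scale (SE 0.15) with an adjusted p of 0.00170. Its values were 16.81, 16.73, 16.71 and 17.32 in named WT and 16.37, 16.21, 15.95 and 16.31 in named Qk-KO, without overlap. Named after their values were seen, its ligand Cx3cl1 differed by -0.59, the scavenging receptor Ackr3, which removes Cxcl12, by -0.37 and the chemokine-like receptor Ccrl2 by 0.32 in limma, none called. Of 28 genes that carry receptor signals, the authors' deposited table called Rgs1 alone among the 27 with an adjusted p, against the same 1.22% of all genes. Rgs1 ends G-protein signalling of chemokine receptors, and it was higher by 0.81 (SE 0.15, adjusted p = 0.000136), with 14.40, 14.56, 14.80 and 14.36 in named WT and 14.93, 15.45, 15.60 and 15.31 in named Qk-KO. The median difference of those 28 genes was 0.01. By limma 0 genes of these lists were called, Cx3cr1, Rgs1 and Gbp2 included.

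Grouped by the genotype field, no member was called among 41 (limma, smallest adjusted p = 0.9995, and 0.0% of all genes). At an unadjusted p under 0.05 there were 5 members of 41, Ccl28, Cxcr2, Ccl8, Ccl4 and Ccl3, where all genes gave 2.67%. By that field Ccl3 was 15.83 ± 0.09 in WT and 15.68 ± 0.08 in Qk-KO libraries (SD, n = 4 each) and did not overlap, the 1 such member of 41 where 1.85% of all genes did not. By limma Ccl3 then differed by -0.16 (95% interval -0.31 to -0.01) at an adjusted p of 0.9995. Cxcr2 differed by 0.92 with a 95% interval of 0.11 to 1.73, and Cxcl9 by 0.20 with an overlap of the groups.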

How the data were processed

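RNA from microglia of the corpus callosum was sequenced in 8 libraries, 4 named WT and 4 named Qk-KO. Per the submitters' processing notes the tools were FastQC, HISAT2, StringTie and DESeq2 and the genome mm10, with neither versions nor the role of each. No source used here gives the annotation release. The authors deposited a single table with a log2 value per library. These were read from the values as regularized log2 values, which shrink low genes towards their mean. Per the file headers the table also holds the mean signal over libraries, scaled for depth, the fold change on the log2 scale, its standard error, a test score (their ratio), and a p-value before and after adjustment. The authors' fold changes followed the sample names (r = 0.99972 across 5232 genes, against 0.04596 for the genotype field, and genes are not independent replicates).

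Genes whose log2 value reached 0 in 4 or more libraries were tested, 22546 in all, with limma 3.58.1 in R 4.3.3 (intensity trend, robust, two-sided, Benjamini-Hochberg over all genes tested). Counts per library were not used here, so no count test was run, and limma on shrunken values stands beside the authors' count-based p-values. A simulation held 4 against 4 libraries and 22546 genes. In it limma recovered 38.8%, 77.6% and 93.9% of genes changed by 0.5, 1 and 2 on the log2 scale, with 3 false among 143 calls. The changed genes were drawn only from those with a mean signal of at least 1 ppm. Noise was drawn for each gene alone, whereas in the real libraries genes moved together. These rates therefore do not tell how many changes limma would find in the comparison made here. Size factors and rough read totals were recovered from genes with reads in 1 library, whose values came out whole within 1%. Lengths and coordinates came from GENCODE M21 (GRCm38), which held 34 of the 49 members under the same identifier version.

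Values in every library are given for members that were called, that had non-overlapping groups and a mean signal of at least 50, or that were among the 10 ligands and 8 receptors with the highest mean signal. The members and the lists were chosen with earlier results of these data known. Same-numbered libraries correlated at 0.0447 to 0.4564 in their deviations from the group means, and differently numbered ones at -0.3332 to 0.1469. These values do not settle whether the numbers pair the libraries. The main fit took the libraries as unpaired, and a fit with the number as a block is given below. Alternatives were other scalings, filters, groupings and left-out libraries. Protein sequences were not used here. A few genes are not reported here by name, though the counts over members and lists include them.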

Additional observations from a re-analysis of the deposited data

Results flagged for a closer look

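In 36 groups of 4 libraries, 5 members had 1 library far from the other 3 of its named group, by a gap that is large against the range of the 4. Chance gives such a gap in about 1 in 20 groups. Cxcl16 was 13.77 in named WT 4, with the nearest other library at 14.11. Cxcr4 was 12.36 in the same library, with the nearest at 13.90. Ccl12 was 11.36 in named Qk-KO 4, with the nearest at 10.71. Ccl9 was 11.23 in named Qk-KO 3, with the nearest at 11.70. Cxcr2 was 6.00 in named Qk-KO 1, with the nearest at 6.67. Of these libraries, named WT 4 and named Qk-KO 4 are those with the most oligodendrocyte marker signal. The part of those markers was not tested.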

How the results depend on the processing

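With limma, 0 members were called under every alternative run, while all genes called moved from 1 to 0 with the genotype field, to 0 with a mean signal of at least 50 and to 4 without both libraries numbered 4, an alternative chosen after seeing the data. Leaving out 1 library at a time gave 0 to 7 calls among all genes and 0 to 0 among members. The members' median difference of -0.06 moved to 0.0521 when libraries were centred on their medians, a scaling that moved the median of all genes to 0.11, and ranged from -0.13 to 0.01 with 1 library left out. The count of 3 members without overlap (5.73% of all genes) moved to 1 with the genotype field (1.85%), to 1 after centring (4.51%) and to 7 of 41 without both libraries numbered 4 (19.6%), and ranged from 3 to 7 with 1 library left out, where the share of all genes ranged from 7.89% to 15.7%. The authors' single call, Cxcl9, held with an adjustment over all deposited p-values (adjusted p = 4.87e-07).

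Grouped by the genotype field, differences turned sign for Ccl3 (-0.16), Ccl4 (-0.21), Cxcl16 (-0.15), Ccl9 (0.12), Cxcl2 (-0.35), Cxcl10 (-0.13), Ccl2 (-0.0167), Cxcl9 (0.20), Ccr2 (0.14), Ccr1 (0.12) and Cxcr3 (0.14). Signs also turned with quantile normalization for Ccl3 (-0.025), Ccl4 (-0.0786) and Cxcl2 (-0.0043), after centring for Cxcl14 (0.0122) and Ccr1 (0.0521), and without both libraries numbered 4 for Cxcl14 (0.0245), Cxcr2 (-0.18) and Ccr3 (-0.0319). With 1 library left out, the ranges that crossed 0 were -0.0289 to 0.16 for Ccl2, -0.0665 to 0.0652 for Ccl3, -0.10 to 0.0699 for Ccl4, -0.15 to 0.0299 for Ccr1, -0.0575 to 0.53 for Ccr7, -0.19 to 0.0367 for Cxcl14, -0.22 to 0.32 for Cxcl2 and -0.11 to 0.69 for Cxcr2. Ranges on 1 side of 0 that moved by over 1.5 times were 0.0892 (without named WT 4) to 0.87 (without named Qk-KO 4) for Cxcr4, 0.0902 (without named Qk-KO 1) to 0.37 (without named Qk-KO 4) for Cxcl16, 0.0296 (without named Qk-KO 4) to 0.36 (without named WT 4) for Ccl12, -0.36 (without named WT 4) to -0.0184 (without named Qk-KO 4) for Ccr2, 0.0694 (without named Qk-KO 1) to 0.32 (without named Qk-KO 2) for Cxcl10, 0.0919 (without named WT 4) to 0.61 (without named WT 2) for Ccr3 and -0.52 (without named Qk-KO 4) to -0.25 (without named Qk-KO 1) for Cxcr3. The cause was not tested. With the replicate number as a block, 1 gene and 0 members were called, and the smallest adjusted p of a member was 0.154. Not every library correlated best with its own number. Members with a mean signal of a few reads are limited by depth and by the shrinkage of their values.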
